A study of Mus musculus with 49 samples.

Results

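The control embryos of a Trim-Away study in mouse late 2-cell embryos were compared with one another. Embryos injected with normal mouse IgG (mIgG) were set against embryos injected with normal rabbit IgG (rIgG). Of 49 single embryos sequenced in the series, 23 were CONTROL embryos, and the 22 with at least 500000 counted reads were kept. These were 9 mIgG embryos, 7 rIgG embryos of library batch 1 and 6 rIgG embryos of library batch 2. For mIgG CONTROL and TBP LOF the number of embryos in the labels differs from that in the methods of the study, and groups follow the labels. One mIgG embryo (embryo 7), with 464300 counted reads, was left out. All came from F1 (C57BL/6J × CBA/H) females mated with F1 males and were collected 48 h after hCG. All received an IgG and, 4 h later, mRNA coding for mCherry-Trim21. In Trim-Away, TRIM21, a ubiquitin ligase, directs antibody-bound proteins to degradation, and the IgG in these embryos has no intended target. The mIgG embryos served as controls for TBP depletion and the rIgG embryos as controls for FOXJ3 depletion. The antibody species, the experiment and the preparation of the libraries therefore differ together between the sets, and their parts in any difference cannot be told apart. The labels give no link between embryos and litters or collection days, so that p-values measure the spread between embryos of these libraries.

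At the late 2-cell stage the mouse embryo has cleared much of the RNA stored in the oocyte and carries out the major wave of zygotic genome activation (ZGA). Genes such as the Zscan4 cluster, Usp17l genes and Zfp352, and transposable elements (TEs) such as the endogenous retrovirus MERVL with its LTR MT2_Mm, are transcribed transiently in this window. MTA_Mm and MTB_Mm are LTR families whose transcripts are abundant in oocytes and are carried into the embryo. SINE B1 and B2 elements are short, non-autonomous repeats that are dispersed through genes and introns. Embryos that differ by a few hours in progress through the 2-cell stage would differ in these genes, which is why they were examined as lists.

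Expression was measured with Smart-seq+5', which keeps the reads of transcript 5' ends. Counted reads per embryo ranged from 1160150 to 5434808 (mIgG), from 1688952 to 2877703 (rIgG batch 1) and from 1302207 to 3257323 (rIgG batch 2). The labels give poly(A) RNA as the molecule. All 3 sets expressed MT2_Mm, with 10934 CPM (reads scaled to the size of the library) or more in every embryo. Of 10 library measures compared, the share of reads in LTR families was lower in mIgG embryos (12.2% ± 1.83, SD, n = 9) than in rIgG embryos (15.8% ± 2.50, SD, n = 13), with p = 0.0007 in a two-sided exact permutation test and 0.007 after adjustment over the measures. Against batch 1 alone the adjusted p was 0.0927, and against batch 2 alone 0.04. The share of ERCC spike-in reads was 2.76% ± 0.372 and 3.85% ± 1.37 (adjusted exact permutation p = 0.113). None of the other 8 measures passed the threshold. The share of SINE reads spread most within mIgG, from 2.84% to 21.4%, and 5 of 9 mIgG embryos (embryos 1 to 5), 2 of 7 batch 1 embryos and 0 of 6 batch 2 embryos had over 10%. The levels of the injected mCherry-Trim21 mRNA overlapped, from 332.5 to 1493 CPM (mIgG), from 319.3 to 1394 CPM (batch 1) and from 242.4 to 3140 CPM (batch 2).

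**Figure D1:**
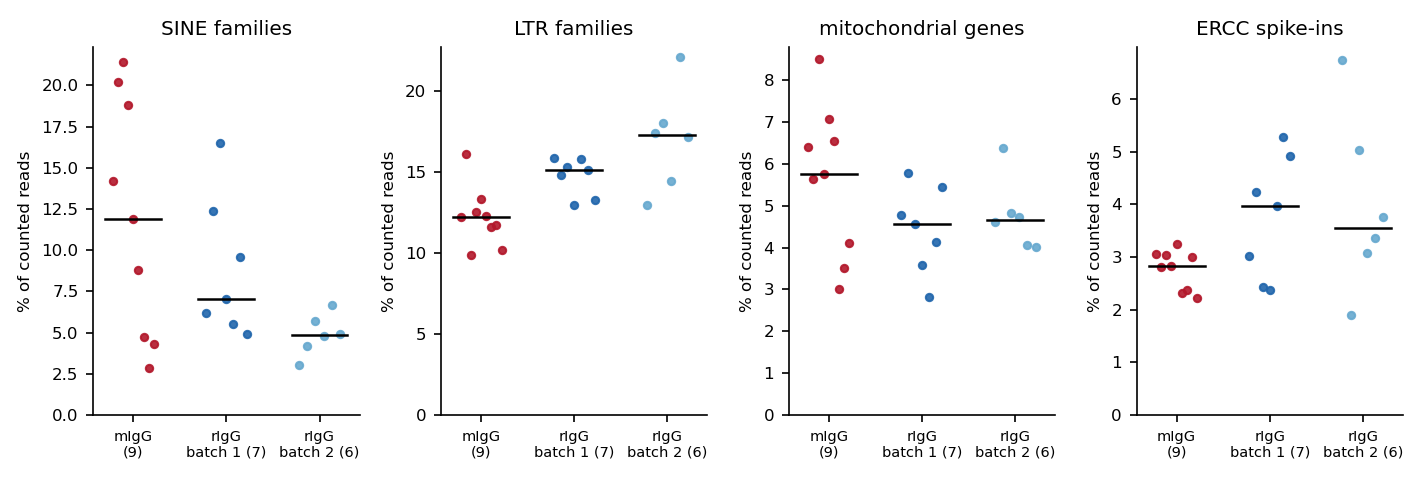
Share of counted reads in SINE families, LTR families, mitochondrially encoded genes and ERCC spike-ins in each of the 22 CONTROL embryos. Each point is an embryo, the line is the median of a library set. The SINE share of mIgG embryos ran from 2.84% to 21.4%, and the median of their LTR share, 12.2%, lay under the lowest rIgG embryo (12.95%).

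The first comparison asked which genes and TE families differ between control sets. In a fit of 18820 genes and 909 TE families with edgeR's quasi-likelihood test, mIgG was set against the mean of both rIgG batches. Of the genes, 69 (0.367%) passed an adjusted p of 0.05. Of these, 50 (0.266%) were higher and 19 (0.101%) lower in mIgG. The split depended on the method, with 63 higher and 2 lower under ERCC scaling and 122 higher and 109 lower with DESeq2. Of the higher genes 4 (Gm15460, Gm19325, Gm43061 and Trcg1) had reads in under 25% of the rIgG embryos, and of the lower genes 2 (Pramel3 and 2310043P16Rik) had reads in under 25% of the mIgG embryos. These passed the filter on low counts mainly through the set in which they were high, and the other called genes were 46 higher and 17 lower. Of the TE families, 5 (0.550%) were higher and 0 lower in mIgG. Within the TE families, 167 and 14 had an unadjusted p under 0.05 in the higher and the lower direction. None of the 74 called features had CPM values that were fully apart between mIgG and rIgG, and over all 19730 features tested (the construct included) 1 had (0.00507%). The median log2 fold change over all features was -0.00 (interquartile range -0.37 to 0.38). These calls rest on few embryos, because leaving out 1 embryo at a time gave 12 to 107 called genes. The fewest were left without mIgG embryo 3, and the most without batch 1 embryo 3. Without the 7 embryos that had over 10% SINE reads, 0 genes and 0 TE families were called, with 1664 genes at an unadjusted p under 0.05. The 72 of 74 called features still tested then had the same direction in 69 cases, and 56 of these had an unadjusted p under 0.05. Over all features, 1731 of 19992 had. The embryos left were part of the fit that chose the 74 features, so that this likeness is partly built in. For scale, rIgG batch 2 against batch 1, which share the antibody, gave 2 called genes (0.0106%), Rpia and Khdc1a. These counts are not like for like, with 6 against 7 embryos between batches and 9 against 13 in the main contrast. The SE of Rps21, for example, was 0.26 between batches and 0.20 in the main contrast. Against batch 1 alone, mIgG gave 0 called genes.

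**Figure D2:**
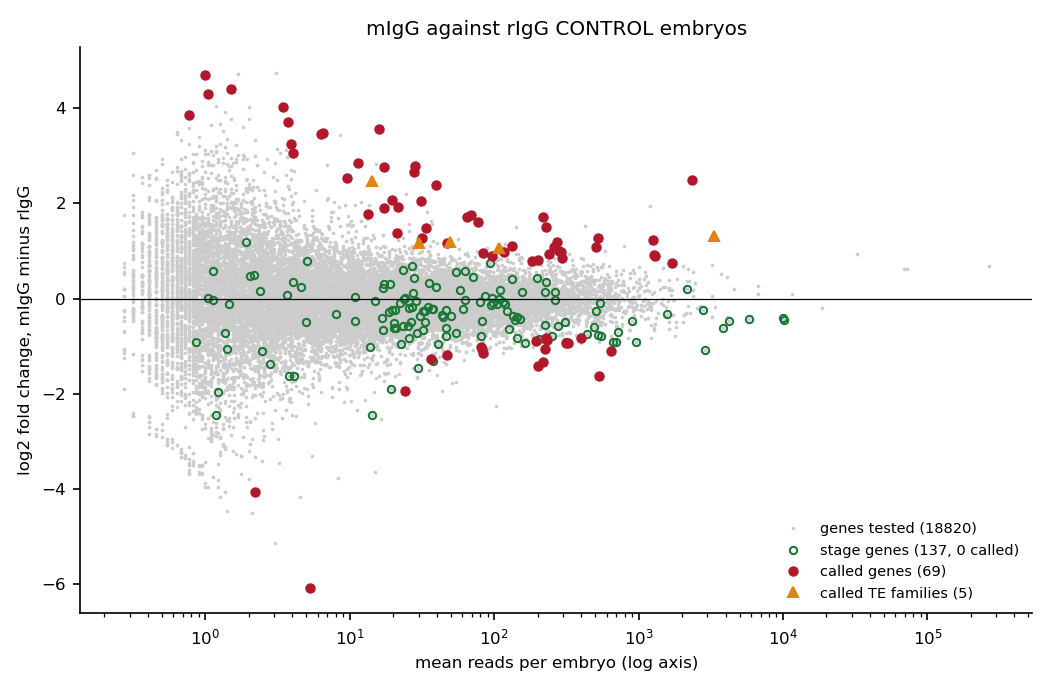
Log2 fold change of mIgG against rIgG (y axis) by mean reads per embryo (x axis, log scale) for 18820 genes, with the 69 called genes, the 5 called TE families and the 137 tested stage genes marked. The 137 stage genes, of which 0 were called (0.367% of all genes were), lie within the cloud of all genes, and most called features lie above 0.

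Against each rIgG batch separately, the same fit called 0 genes and 0 TE families for batch 1 (lowest adjusted p 0.159, with 1944 of 19730 features at an unadjusted p under 0.05). For batch 2 it called 36 genes (0.191%), 24 higher (0.128%) and 12 lower (0.0638%) in mIgG, and 1 TE family (0.110%). Both values rest on the same 9 mIgG embryos. For several called features both values lay far apart, as for Gm26563 (1.60 against batch 1 and 3.16 against batch 2), Hist1h2an (1.67 and 3.85), mt-Ts1 (2.93 and 4.16), Pnn (0.43 and 1.29), Zfp622 (-1.18 and -2.08) and Oaz1-ps (-0.59 and -1.51), and for others close together, as for Rps21 (1.13 and 1.40), Pabpc1 (1.15 and 1.24) and Obox3-ps1 (-1.07 and -1.31). None of these features passed for batch 2 against batch 1 in the same fit (adjusted p 0.327 or more).

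Transcripts encoded by the mitochondrial genome were the group with the most calls. Of 37 tested, 9 were higher in mIgG, 0 were lower, and 36 had a positive log2 fold change (median 0.85). Over all genes 0.266% were called higher and the median was -0.02. By class these were 7 of 22 tRNAs (median 1.26), 1 of 2 rRNAs and 1 of 13 mRNAs (median 0.46). By strand, 5 of the 9 genes on the minus strand of the reference and 4 of the 28 on the plus strand were called. The summed level of the 37 was 30251 to 109766 CPM in mIgG, 23945 to 59611 in batch 1 and 35936 to 63476 in batch 2, so that the group as a whole overlapped between sets.

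The smallest adjusted p of all features belonged to mt-Rnr1, the 12S ribosomal RNA of the mitochondrion (chrM:70-1024, GRCm38, plus strand). Its level was lowest at 675.7 CPM, at the median 2869 and highest at 7143 in mIgG. In batch 1 these values were 355.7, 733.8 and 1440 CPM, and in batch 2 they were 182.4, 298.8 and 605.3 CPM. The 6 mIgG embryos numbered 1 to 6 lay above every rIgG embryo, whereas mIgG embryos 8, 9 and 10 overlapped with batch 1. The log2 fold change was 2.48 ± 0.33 (SE, adjusted p 0.000175), with 1.91 against batch 1 and 3.05 against batch 2. It was 1.57 and did not pass without the embryos over 10% SINE reads (adjusted p 0.0632). mt-Ts1 and mt-Te, tRNAs for serine and glutamate, and mt-Tc, a tRNA for cysteine, are genes of 66 to 69 bases. mt-Ts1 and mt-Te are printed with a nucleolar RNA, because 19 of the 50 genes called higher had an exon length under 500 bases.

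mt-Ts1 (chrM:6870-6938, minus strand): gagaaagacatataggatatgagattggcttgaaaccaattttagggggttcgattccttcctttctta
mt-Te (chrM:14071-14139, minus strand): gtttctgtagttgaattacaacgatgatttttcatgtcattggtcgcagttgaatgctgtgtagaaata
Snord104 (chr11:106500993-106501062, plus strand): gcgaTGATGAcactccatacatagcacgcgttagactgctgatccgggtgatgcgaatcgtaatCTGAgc

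The sequences are those of the gencode M21 transcripts for GRCm38, 5' to 3', and capitals in Snord104 mark the letters of box C (TGATGA) and box D (CTGA), searched on the transcript strand. Of the 100 snoRNAs tested, 25 held TGATGA in the front part and CTGA in the back part of the sequence, divided at its middle. mt-Ts1 was at 0.284, 18.997 and 67.8 CPM (lowest, median and highest) in mIgG, at 0.940, 2.78 and 6.44 in batch 1 and at 0, 1.29 and 2.80 in batch 2. Its log2 fold change of 3.55 ± 0.60 (adjusted p 0.00358) was the largest of any called gene with at least 10 reads per embryo. It was followed by mt-Tc (2.83 ± 0.55, adjusted p 0.0121) and L1cam (2.77 ± 0.55, adjusted p 0.0153), which codes for a neural cell adhesion molecule. The spread within mIgG was wide for all 3. mt-Te ran from 1.06 to 104.7 CPM in mIgG, and 5 mIgG embryos lay above and 1 below every rIgG embryo. Its log2 fold change was 2.65 ± 0.51 (adjusted p 0.0121) in the 22 embryos and -0.24 without the embryos over 10% SINE reads, so that its direction rested on those embryos. mt-Nd6, the complex I subunit mRNA next to mt-Te on the minus strand, was at 23.0, 243.9 and 616.9 CPM in mIgG, 37.3, 83.7 and 128.4 in batch 1 and 39.8, 60.1 and 86.6 in batch 2 (log2 fold change 1.71 ± 0.36, adjusted p 0.0229). For mt-Nd6, 6 mIgG embryos were above and 2 below all rIgG embryos. Without the embryos over 10% SINE reads the value of mt-Nd6 was 0.03, that of mt-Tc 0.42, that of mt-Ts1 1.74 and that of L1cam 1.33, and the called tRNAs mt-Ta and mt-Tt went from 2.05 and 1.76 to -0.15 and -0.04. mt-Ts1 and mt-Nd6 overlap other mitochondrial genes on the opposite strand (mt-Co1 and mt-Nd5), and the strand setting of the counting was not stated.

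Small nucleolar RNAs (snoRNAs), which guide the modification of other RNAs, were a further class. Of 100 snoRNAs tested, 4 were called higher in mIgG and 0 lower, and 81 had a positive log2 fold change (median 1.00, against -0.02 for all genes, of which 0.266% were called higher). Of 9 scaRNAs, which guide the modification of spliceosomal RNAs, 1 (Gm22767) was higher. Of 16 small nuclear RNAs 0 were called and 6 had a positive value (median -0.17). Snord104 was at 5.18, 15.7 and 28.3 CPM in mIgG, 2.82, 7.77 and 10.3 in batch 1 and 0.723, 2.02 and 2.77 in batch 2. All mIgG embryos were above every batch 2 embryo, and 6 of 9 were above every rIgG embryo (log2 fold change 1.91 ± 0.34, adjusted p 0.00754, with 1.01 against batch 1 and 2.81 against batch 2). The other called snoRNAs, Gm22988, Gm25291 and Gm22748, had fewer than 10 reads per embryo on average and lie within the genes Eif4a1, Sec24a and Odc1 on the same strand. A ribozyme annotated within Cpeb3 (Gm22714) was called as well (log2 fold change 2.07 ± 0.48, adjusted p 0.0411). Without the embryos over 10% SINE reads Snord104 had 1.62, Gm22714 had 0.55, and Gm22988, Gm25291 and Gm22748 went from 3.45, 3.25 and 3.47 to 0.65, 0.77 and 0.96. Among the 50 genes higher in mIgG the median exon length was 851 bases, and 19 were under 500 bases. Among the 19 lower genes the median was 3073 bases and 0 were under 500 bases. Over all 18820 genes tested the median was 3344 bases and 1179 were under 500 bases. With offsets for GC content and length per embryo, 40 genes were called, of which 39 were among the 69. Of the 69 called genes, 35 overlap another gene, 20 of them on the opposite strand. Overlaps were not counted over all genes tested, so that this is no trait of the called genes. Mt2, which codes for a metallothionein, and Gm45774, annotated on its opposite strand, had nearly the same values (median 761.96 and 768.3 CPM in mIgG), so that they count as 1 signal.

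Ribosomal protein mRNAs were the other group with several calls. Of 82 cytosolic ribosomal protein genes, 5 were higher in mIgG (Rps21, Rps29, Rps28, Rplp2 and Rpl36), 0 were lower, and 74 had a positive log2 fold change (median 0.37, and 0.33 and 0.39 against batch 1 and batch 2). At an unadjusted p under 0.05, 31 were higher and 0 lower, where 5.33% of all genes were higher. The 82 summed to 22942 to 31848 CPM in mIgG, 8696 to 28762 in batch 1 and 16399 to 23885 in batch 2. This group as a whole thus also overlapped between sets. Rps21, a protein of the small subunit, was at 280.8, 382.5 and 554.2 CPM in mIgG, 84.5, 173.3 and 304.2 in batch 1 and 120.9, 132.8 and 224.2 in batch 2. For Rps21, 8 mIgG embryos exceeded all rIgG embryos, and the remaining one lay below 1 batch 1 embryo only (log2 fold change 1.27 ± 0.20, adjusted p 0.00208). Without the embryos over 10% SINE reads the value of Rps21 was 1.02 and did not pass (adjusted p 0.11). Rps29 was at 624.96, 882.2 and 1166 CPM in mIgG, 190.2, 328.6 and 776.6 in batch 1 and 252.2, 323.6 and 631.1 in batch 2. In this gene 7 mIgG embryos exceeded every rIgG embryo (1.23 ± 0.23, adjusted p 0.00921). Rplp2, of the ribosomal stalk, differed by 0.74 ± 0.16 (adjusted p 0.021) and Rps28 by 1.09 ± 0.20 (adjusted p 0.00921). Without the embryos over 10% SINE reads the value of Rps28 was 0.59 and that of Pabpc1 0.47. Pabpc1, the cytoplasmic poly(A)-binding protein, had medians of 215.6, 99.8 and 86.05 CPM in mIgG, batch 1 and batch 2 (1.195 ± 0.23, adjusted p 0.0121). Ribosomal protein genes have many near-identical pseudogenes, one of which (Rps13-ps1) was itself called, and the reads of such copies may have been divided between them. Of 25 ribosome biogenesis genes 0 were called (median 0.19), with 8 higher and 0 lower at an unadjusted p under 0.05, and of 80 nuclear genes of oxidative phosphorylation 0 were called (median 0.07), with 11 higher and 0 lower. In the other lists, 0 of 38 proteasome genes (-0.10), 0 of 20 heat shock genes (-0.05), 0 of 21 p53 and stress response genes (-0.32) and 0 of 8 interferon response genes (-0.02) were called. With 0.367% of all genes called, lists of this size would hold few calls or none.

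Other genes higher in mIgG are described one by one and form no tested group. Arglu1, a cofactor of splicing and transcription, was at 11.4, 29.0 and 48.3 CPM in mIgG, 6.24, 11.4 and 22.1 in batch 1 and 6.94, 7.64 and 12.7 in batch 2. For Arglu1, 7 mIgG embryos were above all rIgG embryos (log2 fold change 1.47 ± 0.27, adjusted p 0.00858). Snrnp70, a protein of the U1 particle, was at 106.2, 166.5 and 177.9 CPM in mIgG, 23.8, 105.2 and 134.5 in batch 1 and 60.0, 68.6 and 96.2 in batch 2 (0.94 ± 0.21, adjusted p 0.0299). Pnn, a protein of the exon junction complex, and the kinase Prpf4b were also higher (0.86 ± 0.17 and 0.99 ± 0.22). Further genes higher in mIgG were Cdv3 (0.97 ± 0.18, adjusted p 0.00961), the lincRNA Gm26563 (2.38 ± 0.35, adjusted p 0.000832), which overlaps Suz12 on the opposite strand, and the histone gene Hist1h2an (2.76 ± 0.46, adjusted p 0.00349). Hist1h2an was the only called member of 38 replication-dependent histone genes, whose median was -0.13. The rIgG libraries include 0 values for Hist1h2an in both batches. Without the embryos over 10% SINE reads Prpf4b and Gm26563 had 0.60 and 1.29.

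**Figure D3:**
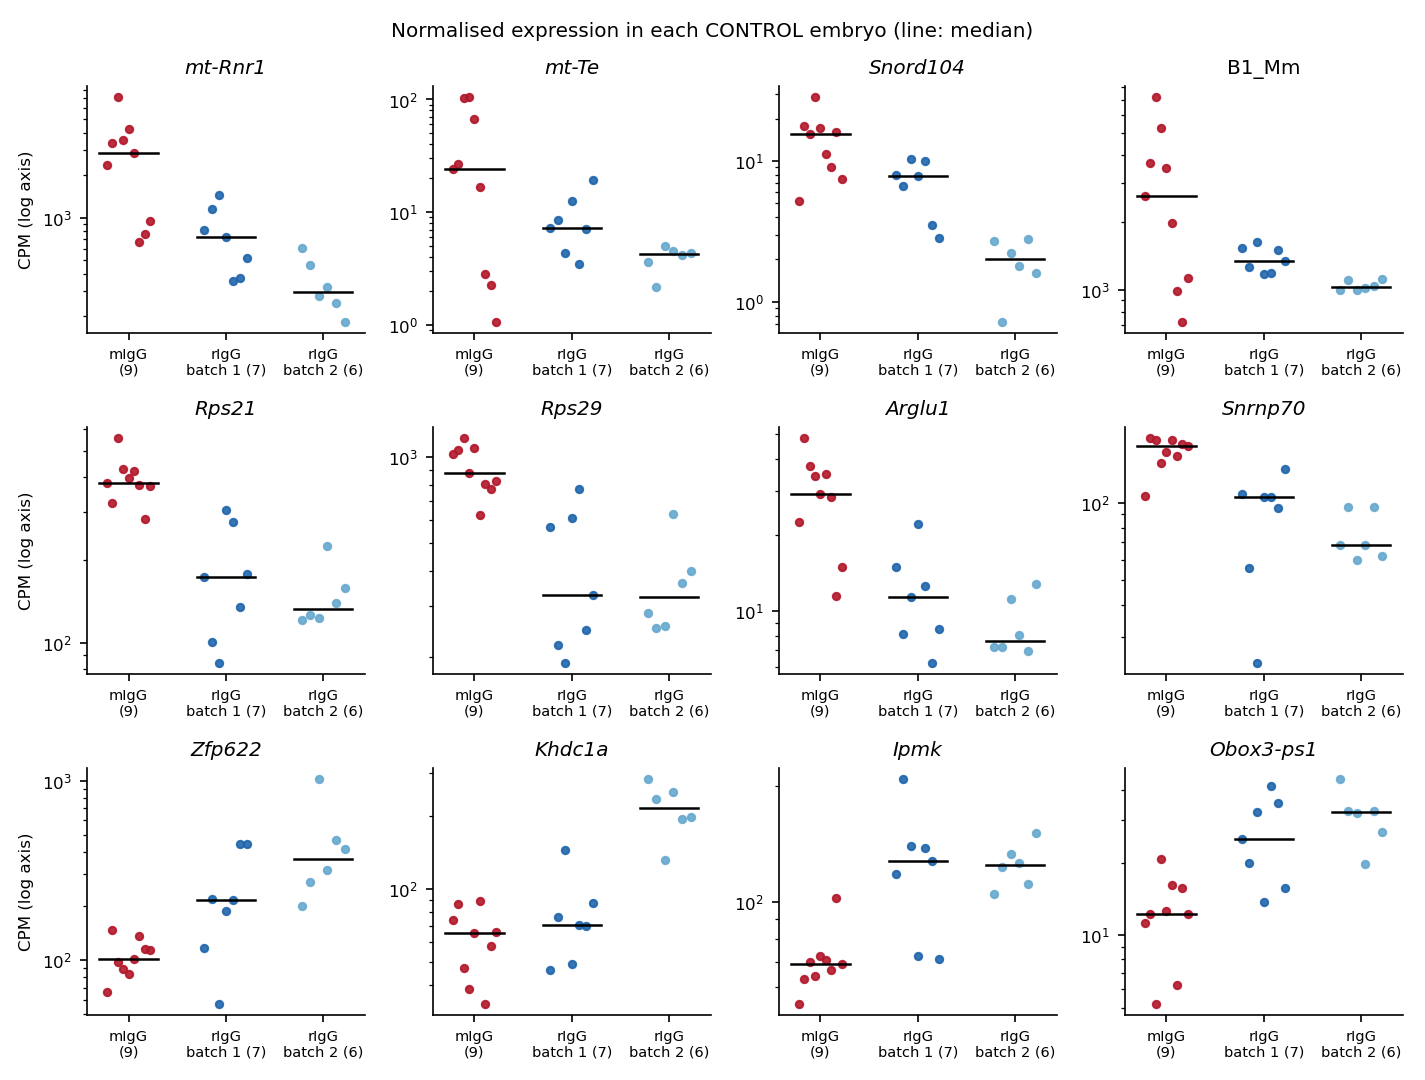
Normalised expression (CPM, log axis) of 12 called features in each CONTROL embryo, with the number of embryos under each library set and a line at the median. mt-Rnr1 and B1_Mm separate within mIgG, with embryos 8, 9 and 10 low, whereas Rps21 is at 280.8 CPM or more in all 9 mIgG embryos, and Khdc1a is highest in batch 2 (131.1 to 282.4 CPM).

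Of the 19 genes lower in mIgG, the smallest adjusted p belonged to Zfp622, which codes for a zinc finger protein that associates with pre-60S ribosomal particles. It was at 66.5, 101.5 and 147.3 CPM in mIgG, 56.9, 215.0 and 443.3 in batch 1 and 199.4, 366.1 and 1017 in batch 2. All mIgG embryos were below every batch 2 embryo, but overlapped with batch 1 (log2 fold change -1.63 ± 0.29, adjusted p 0.00754). Ywhah, a 14-3-3 adaptor protein, was at 33.5, 48.3 and 98.8 CPM in mIgG, 39.5, 98.6 and 206.4 in batch 1 and 67.7, 137.1 and 253.8 in batch 2 (-1.32 ± 0.27, adjusted p 0.0192). Ipmk, an inositol phosphate kinase, had 7 of 9 mIgG embryos below every rIgG embryo, as did Klhl8 (log2 fold change of Ipmk -0.82 ± 0.19, adjusted p 0.0411), and its values against both batches were alike (-0.82 each). Khdc1a, of a family of oocyte and embryo KH-domain proteins, was at 33.5, 65.5 and 88.9 CPM in mIgG, 46.3, 70.5 and 143.6 in batch 1 and 131.1, 215.1 and 282.4 in batch 2 (-1.05 ± 0.22, adjusted p 0.0192). Its difference lay with batch 2, with -0.32 against batch 1, -1.79 against batch 2 and 1.47 for batch 2 against batch 1 (adjusted p 0.0418). Obox3-ps1 and Obox3-ps3 are pseudogenes of the oocyte homeobox family. Obox3-ps1 was at 5.22, 12.3 and 20.6 CPM in mIgG, 13.7, 25.1 and 41.4 in batch 1 and 19.7, 32.2 and 44.2 in batch 2, and 6 mIgG embryos were below every rIgG embryo (-1.19 ± 0.26, adjusted p 0.032). Obox3-ps3 differed by -1.93 ± 0.41 (adjusted p 0.0211), Ccnb1-ps, a pseudogene of cyclin B1, by -1.28 ± 0.27 (adjusted p 0.0211), and Oaz1-ps by -1.05 ± 0.22 (adjusted p 0.0192). Reads of these pseudogenes may be shared with their parent genes. Gm42553, an unclassified transcript on chromosome 5, was lower as well (-1.42 ± 0.29, adjusted p 0.0191).

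Of the 19 lower genes, 3 are on the X chromosome, which holds 624 of the genes tested (3.32%), although the call of Pramel3 rests on a gene that passed the filter on low counts through rIgG embryos alone: Tktl1, a transketolase-like gene, Morf4l2, a chromatin protein, and Pramel3, of a family with members in germ cells and early embryos. Of the higher genes, L1cam is X-linked (2.77, and 3.36 with the covariate for Eif2s3y reads described next). Tktl1 was at 15.5, 23.8 and 26.8 CPM in mIgG, 16.3, 47.01 and 63.2 in batch 1 and 31.9, 54.5 and 68.4 in batch 2 (log2 fold change -1.14 ± 0.22, adjusted p 0.0121), and Morf4l2 at 48.4, 65.5 and 69.0, at 78.0, 112.9 and 208.1, and at 53.8, 99.0 and 157.9 CPM (-0.89 ± 0.20, adjusted p 0.0401). Pramel3 had 0 reads in all 9 mIgG embryos, where a count of 0 in the whole set allows up to 0.154 CPM for counting error only, and medians of 5.98 and 1.79 CPM in the batches. The sets also differed in the number of embryos with Y-linked reads. Reads of the Y-linked gene Eif2s3y, which codes for a translation initiation factor subunit, were present in 8 of 9 mIgG embryos, in 2 of 7 batch 1 embryos and in 5 of 6 batch 2 embryos. Over protein-coding genes with at least 10 reads per embryo, 217 of 260 X-linked genes (83.5%) and 4314 of 8089 autosomal genes (53.3%) had lower values in mIgG. The median log2 fold change was -0.37 on the X chromosome (-0.56 against batch 1 and -0.21 against batch 2) and -0.03 on autosomes. With the presence of Eif2s3y reads as a covariate, chosen after seeing the data, the medians were -0.11 and -0.05. Tktl1 kept its difference under this covariate (-1.1996, adjusted p 0.0121). Morf4l2 (-0.73, from -0.89) did not pass (adjusted p 0.166). Neither did Pramel3 (adjusted p 0.166), whose reads were present in 6 of 6 rIgG embryos without Eif2s3y reads and in 2 of 7 with them. In mIgG, embryo 3 had 0 reads of Eif2s3y and also 0 of Pramel3, unlike the rIgG embryos without Eif2s3y reads. In the fit with this covariate 45 genes were called, of which 37 were among the 69.

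The second comparison asked whether stage genes of the 2-cell embryo account for the differences. Of 137 stage genes tested over 4 lists, 0 were called in either direction, where 0.367% of all genes were called. At that share a list of this size would hold few calls or none, so that the count alone does not set the stage genes apart. This was 0 of 40 genes activated at the 2-cell stage, 0 of 38 oocyte transcripts cleared after fertilisation, 0 of 30 maternal effect genes and 0 of 29 genes of the 4-cell to blastocyst stages. Their median log2 fold changes were -0.46, -0.36, -0.38 and -0.11, beside -0.02 for all genes. Genes activated in the embryo and transcripts inherited from the oocyte thus had medians on the same side of 0. At an unadjusted p under 0.05, 9 activation genes and 12 oocyte transcripts were lower, and 1 and 0 were higher, where 5.33% of all genes were lower. The counts cover the lists only. Khdc1a, Obox3-ps1, Obox3-ps3 and Pramel3, of oocyte, germ cell or embryo families, were called lower in mIgG and are on none of them. With size factors from the ERCC spike-ins, which moved the median of all features to 0.22, the medians of the 4 lists were -0.27, -0.12, -0.17 and 0.12. The 4-cell to blastocyst list thus changed sign with the shift of all features, and all 4 lists stayed under the median of all features.

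Among the activation genes with the most reads, Usp17lb, a deubiquitinase gene, had medians of 133.0, 240.8 and 191.5 CPM in mIgG, batch 1 and batch 2 (log2 fold change -0.75 ± 0.30, adjusted p 0.29). For Usp17lb, 5 mIgG embryos lay below every rIgG embryo (unadjusted p 0.0167 in edgeR's quasi-likelihood test). Tmem92 (-0.48 ± 0.35) and Sp110 (-0.02 ± 0.22) were within the spread between embryos. The oocyte transcripts Omt2b and Omt2a, the most abundant of their list, differed by -0.45 ± 0.21 and -0.42 ± 0.20 (adjusted p 0.408 and 0.443), and Oosp1, an oocyte-secreted protein, by -0.23 ± 0.28. For the maternal effect genes Dppa3, Tcl1 and Spin1 the values were -0.43 ± 0.21, -0.48 ± 0.33 and -0.62 ± 0.26, with the lowest adjusted p at 0.327. Klf17, Dppa4 and Dppa2, of the later list, had -0.48 ± 0.19, -0.09 ± 0.24 and -0.26 ± 0.24. In the fit without the embryos over 10% SINE reads Tcl1 had 0.08, Oosp1 0.10, Spin1 -0.19, Omt2a -0.20 and Omt2b -0.28, so that the lower values of these genes depended on those embryos, whereas Usp17lb (-0.64), Dppa3 (-0.42) and Klf17 (-0.47) moved little. The mean level of activation genes (log2 CPM) ran from 2.52 to 4.46 in mIgG. In batch 1 it ran from 2.62 to 4.87 and in batch 2 from 2.60 to 4.20. That of oocyte transcripts ran from 5.16 to 5.74 in mIgG, 5.03 to 6.75 in batch 1 and 5.52 to 6.10 in batch 2.

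A stage score per embryo, the mean log2 CPM of activation genes minus that of oocyte transcripts, placed all sets in one range. It ran from -2.81 to -1.24 in mIgG (mean -2.19 ± 0.614, SD, n = 9), from -2.40 to -1.28 in batch 1 (-1.86 ± 0.391, n = 7) and from -3.02 to -1.59 in batch 2 (-2.16 ± 0.482, n = 6). Batch 1 embryo 3 had the highest mean of activation genes (4.87) and of oocyte transcripts (6.75) of all embryos kept. Its score (-1.88) was the median of batch 1, so that the score did not set this embryo apart. With the stage score as a covariate, 36 genes (0.191%) and 2 TE families were called, all among the 74 features. The log2 fold changes of the 74 features kept their sign, and were at 0.902 to 1.07 times their first value (median 0.982). The sizes of the differences thus changed little with the score, while the count of calls went from 74 to 38. The set means of the score lay within the spread of each set, and both lists in the score had medians below 0. The score could therefore move the differences little, and their small change is no measure of the part of stage. mt-Rnr1 had 2.40 with the score (adjusted p 0.000776). With the mean levels of activation genes and of oocyte transcripts as separate covariates, chosen after seeing the data, 172 genes and 36 TE families were called, of which 65 and 5 were in the first set. Of the stage genes 4 then passed, 2 higher and 2 lower, beside the 172 over all genes. The covariates are means of stage genes, so that this outcome is partly fixed and is no result about stage.

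**Figure D4:**
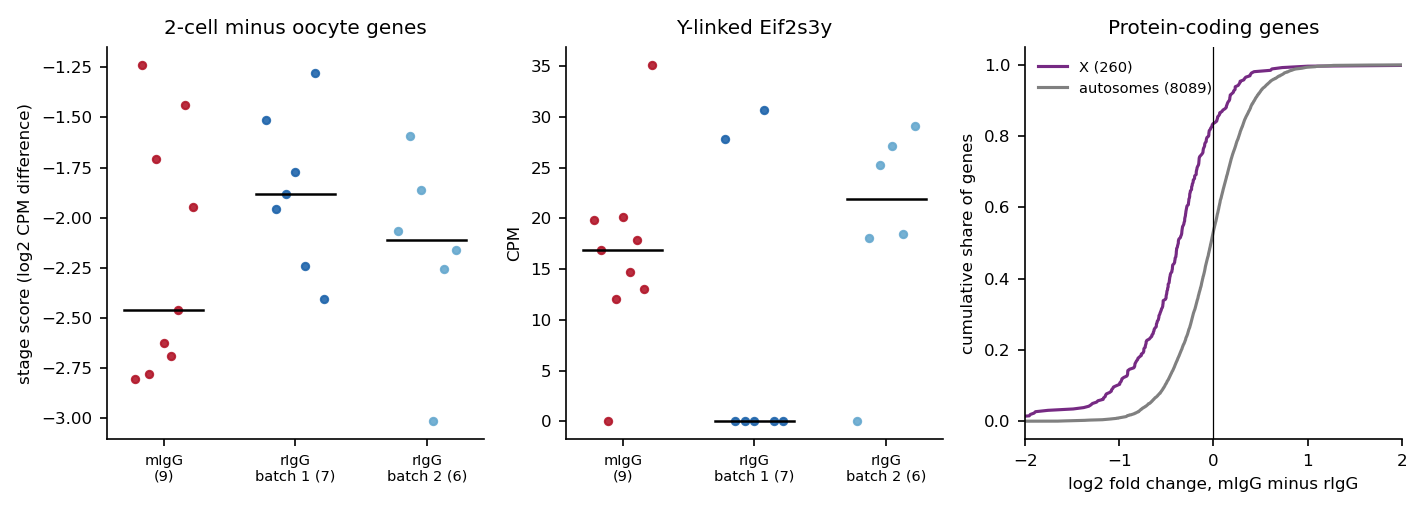
Stage score of each embryo (mean log2 CPM of 40 activation genes minus that of 38 oocyte transcripts), CPM of the Y-linked gene Eif2s3y in each embryo, and cumulative share of 260 X-linked and 8089 autosomal protein-coding genes by log2 fold change. The stage scores of the 3 sets overlap, Eif2s3y was at 0 in 1 mIgG, 5 batch 1 and 1 batch 2 embryos, and the X-linked curve lies to the left of the autosomal one.

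TE families of the 2-cell embryo did not pass the test either. MT2_Mm had medians of 20398, 20496 and 18754 CPM in mIgG, batch 1 and batch 2 (log2 fold change 0.15 ± 0.25, adjusted p 0.881), and MERVL-int had 7168, 8223 and 11418 CPM (-0.39 ± 0.22, adjusted p 0.51). ORR1A0 and ORR1A1, MaLR LTRs activated with the embryonic genome, differed by -0.21 ± 0.20 and -0.05 ± 0.19. Of the oocyte families, MTA_Mm, which had the most reads of these LTRs, was at 22414, 33610 and 56594 CPM in mIgG, 22917, 42297 and 59758 in batch 1 and 38672, 61632 and 115068 in batch 2 (-0.57 ± 0.26, adjusted p 0.398). MTB_Mm differed by -0.54 ± 0.25 (adjusted p 0.408). In the fit without the embryos over 10% SINE reads ORR1A0 had -0.52 and ORR1A1 -0.41 (unadjusted p 0.0321 and 0.0814, with 0 families called), and MTB_Mm had -0.21. The families named here thus did not pass the test, although the summed LTR share, lower in mIgG, did. Of all 564 LTR families 2 were called, MER31B and RLTR33, both higher in mIgG, where 0.550% of all 909 TE families were called. At that share a group of this size would hold few calls, so that the count does not set LTR families apart.

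The 5 families that were higher in mIgG are of several classes. B1_Mm, a SINE of the B1 group, was at 723.5, 2614 and 7186 CPM in mIgG, 1184, 1346 and 1637 in batch 1 and 997.8, 1035 and 1117 in batch 2. For B1_Mm, 6 mIgG embryos were above and 2 below every rIgG embryo, and the level within mIgG followed the SINE share, with 2614 to 7186 CPM in the 5 embryos over 10% and 723.5 to 1992 CPM in the other 4. The log2 fold change was 1.32 ± 0.27 (adjusted p 0.0192). B1_Mm reads are part of the SINE share, so that a fit without the embryos over 10% is no independent measure of this family. MER31B, an ERV1 LTR, had 2.66, 19.8 and 31.5 CPM in mIgG, 0.475, 3.13 and 7.04 in batch 1 and 0, 1.29 and 5.97 in batch 2, with 7 mIgG embryos above all rIgG embryos (2.47 ± 0.46, adjusted p 0.00947). RLTR33, an ERVK LTR (1.19 ± 0.27, adjusted p 0.0362), L1MEf, an old LINE-1 family (1.16 ± 0.28, adjusted p 0.0496), and RCHARR1, a hAT-Charlie DNA transposon (1.06 ± 0.24, adjusted p 0.0349), were the others. Without the embryos over 10% SINE reads the values of MER31B, RLTR33 and RCHARR1 were 1.13, 0.54 and 0.60, and that of L1MEf was 1.18. The satellite IMPB_01 was next in the higher direction (1.11 ± 0.27, adjusted p 0.055). In the lower direction the smallest adjusted p belonged to RLTR10D2 (-1.22 ± 0.30, adjusted p 0.0618), MER73, RMER21B, MLT1F2-int, L5 and MER92D.

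Over all 909 TE families 679 had a positive log2 fold change (median 0.35), with medians of 0.47 over 35 SINE families, 0.59 over 143 LINE, 0.51 over 144 DNA and 0.22 over 564 LTR families. Over all TE families the median was 0.16 against batch 1 and 0.52 against batch 2, and over LTR families 0.04 and 0.39. The rIgG batches, which share the antibody, differed from each other by a median of -0.36 over all TE families (batch 2 minus batch 1). The LTR families were thus positive at the median, whereas the share of reads in LTRs was lower in mIgG. All 5 B2 families had positive values (median 1.18, with 0.63 against batch 1 and 1.73 against batch 2). Over these families the rIgG batches differed by a median of -1.10 (batch 2 minus batch 1). None of the 5 was called, which so few families would also show at the share of 0.550% over all TE families. B2_Mm1a and B3A, SINE families that the study followed, differed by 1.18 ± 0.39 (adjusted p 0.178) and 0.79 ± 0.20 (adjusted p 0.0746), with mean levels of B2_Mm1a at 58603 CPM in mIgG, 37866 in batch 1 and 17629 in batch 2. Reads of both are part of the SINE share, which was over 10% in 5 of 9 mIgG, 2 of 7 batch 1 and 0 of 6 batch 2 embryos. L1MdTf_II differed by 0.19 ± 0.49.

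**Figure D5:**
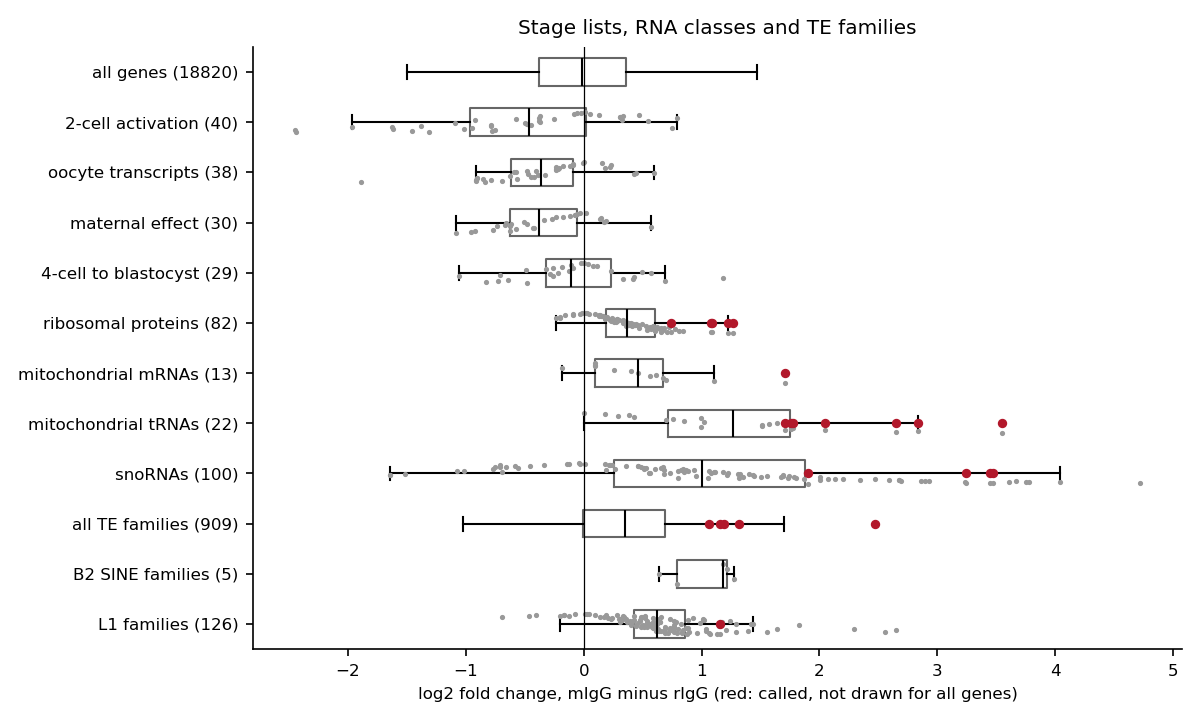
Log2 fold change of mIgG against rIgG for stage lists, RNA classes and TE groups, with the number tested in brackets. Boxes give quartiles and median, whiskers reach 1.5 times the box, points are members (groups under 150) and red points are called members. The medians of the stage lists lie left of 0, and these lists hold no called member, and mitochondrial tRNAs (median 1.26) and snoRNAs (median 1.00) lie to the right.

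The same features were read in the LOF embryos, which the comparison did not use. In 9 TBP LOF embryos against 9 and 7 FOXJ3 LOF embryos of batch 1 and 2, scaled and fitted together, 38 of the 55 features higher in mIgG were higher in TBP LOF (52.8% of all features were), and 23 were called higher (15.1% of all features were). Of the 19 lower features 12 were lower (47.1%) and 7 called lower (16.8%). Depletion of TBP and of FOXJ3 differs between these sets as well and cannot be told apart from the rest. The SINE share also differed, from 3.14% to 19.7% in TBP LOF (over 10% in embryos 1, 2 and 9) and from 2.51% to 8.16% in FOXJ3 LOF. The LOF embryos are therefore no check that is free of the SINE share. mt-Rnr1 had a median of 2293 CPM in TBP LOF, and 631.9 and 361.0 CPM in FOXJ3 LOF of batch 1 and 2, and Zfp622 had 67.8, 105.7 and 333.5 CPM. Rps21 did not follow this order, with 162.7, 271.7 and 104.7 CPM, and B1_Mm had 815.4, 1075 and 932.3 CPM. The targeted genes themselves had like levels in the CONTROL sets. Tbp differed by 0.15 ± 0.22 (adjusted p 0.868), Foxj3 by -0.06 ± 0.18 (adjusted p 0.95) and mCherry-Trim21 by -0.27 ± 0.33 (adjusted p 0.824).

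Markers of other cells that embryos could carry along overlapped between sets. Of 21 cumulus and granulosa cell markers 7 were tested, of 7 sperm markers 2, of 8 blood markers 2 and of 6 oviduct markers 4. None of these was called, which lists of this size would also show at the share of 0.367% over all genes. The summed level of the cumulus list was 33.5 to 88.9 CPM in mIgG, 23.3 to 75.3 in batch 1 and 32.5 to 65.7 in batch 2. Sperm markers summed to at most 4.29, 5.42 and 1.19 CPM, and blood markers to at most 31.1, 34.2 and 30.2 CPM. The oviduct list summed to 186.8 to 331.6, 43.9 to 298.7 and 185.8 to 413.5 CPM. Nearly all of this was Epcam (182.7 to 331.6, 42.8 to 297.4 and 184.0 to 410.2 CPM), while Ovgp1 and Muc1 reached at most 4.17 and 3.19 CPM. The sum thus mostly gives the level of Epcam and is no measure of oviduct cells. The median log2 fold changes were 0.18, 0.69, -0.31 and 0.14 in the order of these lists. Among sex-linked lists, 0 of 7 Y-linked genes (median 0.68) and 0 of 3 genes of the Xist region (median -0.12, with -1.24 against batch 1 and 0.92 against batch 2) were called. The level of Xist in mIgG rested on embryo 3, the one without Eif2s3y reads, with 43.8 CPM.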

How the data were processed

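Single late 2-cell embryos were profiled with Smart-seq+5'. The authors trimmed reads with Trimmomatic, sorted 5'-end reads, mapped them with STAR 2.7.11a to GRCm38 with the mCherry-Trim21 construct added and endogenous Trim21 masked, kept the second read of each pair after mapping, and counted genes (gencode M20), ERCC transcripts and TE families with TEcount. Deposited values are expected counts, estimated for TEs, with no normalization applied. Each is a whole number. Settings for strand and for multi-mapping reads: not given in the sources used here. Values of repeats, paralogs, pseudogenes and overlapping genes may be divided. Tables of single TE insertions (19) were not used.

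Symbols and coordinates came from gencode M21 (GRCm38), which named 54809 of 54838 genes, and 42 TE subfamily rows were added to 6 families, leaving 1343. The limits for an embryo were at least 500000 counted reads, 1000 detected genes, and at most 10% mitochondrial and 15% ERCC reads. No pair among 231 pairs of embryos had like counts (lowest chi-square per gene 5.23), so each counts as 1 sample. Features with at least 1 read in 25% of the 22 embryos were tested with edgeR's quasi-likelihood test (edgeR 4.0.16, R 4.3.3), TMM scaling, the 3 library sets as coefficients and mIgG minus the mean of both rIgG batches as contrast. P-values were adjusted by Benjamini-Hochberg over all features, with a threshold of 0.05. CPM are TMM-scaled counts, and SE is the log2 fold change over the square root of F. Library measures (10) were compared by a two-sided exact permutation test. Reads amplified by PCR were counted without molecular identifiers and may repeat a molecule, and the limit for a count of 0 (3 counts) covers counting error only.

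Named features were, in the comparison of mIgG with rIgG, the 10 called genes lowest in adjusted p for each direction with at least 10 reads per embryo, the 3 with the largest fold in each direction among these, the 6 TE families lowest in adjusted p for each direction, fixed TE families, the targeted genes and the construct, and from each list up to 4 called members or the 3 with most reads. Other named genes were chosen after their values were seen, as were the classes by RNA type, length, strand and chromosome and the fit of LOF embryos. Members and lists were chosen with earlier results of these data known. Alternatives were DESeq2 1.42.0 and other scalings, filters, covariates and sets of embryos. The scripts were tested on simulated data.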

Additional observations from a re-analysis of the deposited data

Results flagged for a closer look

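Groups of embryos were examined for a highest or lowest embryo far from the rest, given as its gap to the nearest embryo over the range of the group (log2 of CPM + 1 for features). Of 150 groups examined 8 stood out, where chance gives about 1 in 20. Khdc1a and Rpia differed between the contrasts of mIgG with each rIgG batch, by a log2 difference of 1.47 (adjusted p 0.0418) and 2.20 (adjusted p 0.0156) for batch 2 minus batch 1 in edgeR's quasi-likelihood test. Rpia, an enzyme of the pentose phosphate pathway, had 0.83 against batch 1 and -1.37 against batch 2.

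Tktl1 was lowest in batch 1 embryo 3 (16.3 CPM, gap over range 0.593) and in batch 2 embryo 5 (31.9 CPM, 0.633). Batch 1 embryo 3 was also the lowest for Oaz1-ps (16.3 CPM, 0.597) and had the highest share of LINE reads of its batch (0.768%, gap over range 0.658). Leaving out that embryo gave 107 called genes and 17 called TE families. Ywhah was highest in mIgG embryo 8 (98.8 CPM, 0.612), Foxj3 lowest in mIgG embryo 10 (53.7 CPM, 0.523) and Hist1h2an lowest in batch 1 embryo 7 (0 CPM, 0.568). Among library measures, the share of mitochondrial reads was highest in batch 2 embryo 2 (6.39%, gap over range 0.657).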

How the results depend on the processing

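The calls, 69 genes and 5 TE families, were few, moved with single embryos and came from single embryos with 1160150 to 5434808 counted reads. Values of transcripts with few reads are the least precise. Counts of calls are given as genes and TE families for mIgG against rIgG. They were 42 and 2 without a term for batch, 0 and 0 with batch 1 alone, 181 and 25 with batch 2 alone, 231 and 32 with DESeq2, 231 and 18 without a filter, 36 and 2 with the stage score, 31 and 1 with the construct's level as covariate, and 40 genes with GC and length offsets. All 23 embryos gave 3 TE families and thinned counts gave 8. ERCC scaling gave 63 genes higher and 2 lower, and 41 of the 65 were among the 69. DESeq2 gave 122 and 109, and all 23 embryos gave 37 and 29. Of alternatives chosen after seeing the data, the presence of Eif2s3y reads gave 45 genes and the separate stage means 172 and 36. The log2 of counted reads gave 40 and 1, and leaving out embryos over 10% SINE reads 0 and 0. In that last fit mt-Te, mt-Ta and mt-Tt reversed to -0.24, -0.15 and -0.04. Stage genes were called with DESeq2 (1), batch 2 alone (2), no filter (4) and the separate stage means (4), and in 0 of the other fits. Over all genes these 4 fits called 231, 181, 231 and 172. The separate stage means are made of stage genes, so that their count is partly fixed.

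Leaving out each embryo in turn gave 12 to 107 genes, 1 to 20 TE families, 0 stage genes, 0 calls against batch 1, 11 to 80 against batch 2 and 0 to 4 between batches. The gene count moved by over 1.5 times without mIgG embryo 2 (34), 3 (12), 4 (23) or 5 (24), batch 1 embryo 3 (107) or 5 (41), and batch 2 embryo 1 (44), 2 (31), 3 (38), 6 (34) or 7 (36), and also without mIgG embryo 6 (45). Against batch 1 (0 calls) there were 126 without a filter, 2 with the presence of Eif2s3y reads and 5 with the stage means. Against batch 2 (37) there were 23 with ERCC scaling, 70 with filterByExpr, 123 without a filter, 12 with the construct's level, 63 with thinned counts, 383 with the stage means and 20 without embryos over 10% SINE reads. Between batches (2) there were 1 with median-of-ratios factors, 9 with ERCC scaling, 1 with filterByExpr and 32 without a filter. The stage score gave 0, thinned counts 4, the presence of Eif2s3y reads 1, the stage means 24 and counted reads 1. Without embryos over 10% SINE reads there were 5 between batches. The LTR share differed by -2.54 percentage points against batch 1 alone, past no threshold. The cause of these shifts was not tested.

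What the embryo numbers of the labels stand for was not stated. The 5 mIgG embryos over 10% SINE reads are numbers 1 to 5 (11.9% to 21.4%), and numbers 8 to 10 had 2.84% to 4.73%, and whether runs of numbers share a collection was not tested. Across sets, over 17 pairs with the same number the deviations correlated at a median of -0.03 (-0.217 to 0.206), and 1 of 22 embryos correlated best with its own number. With the number as a block, 12 genes and 1 TE family were called, 17 features against batch 1, 2 against batch 2 and 0 between batches. Of 545 values of 29 called features that the naming rule chose under other alternatives, 413 kept direction and call, 131 lost the call and 1 reversed.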
